A study of Mus musculus with 12 samples.

Results

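Müller glia without hypoxia marker RNA were retinal cells that carried at least 3 of the 7 Müller markers Rlbp1, Slc1a3, Car14, Crym, Dapl1, Spc25 and Dkk3 and no RNA of the 3 hypoxia markers Ndufa4l2, Adm and Apln. The rule also asked for at least 200 detected genes. It chose 2216 of 25472 cells, or 2216 of the 3420 cells with the Müller markers. The other 1204 Müller-marker cells carried RNA of at least 1 hypoxia marker. Of the 2216 cells, 1107 came from mice with oxygen-induced retinopathy (OIR) and 1109 from normoxic mice (NORM). The cells were thus chosen by the measured RNA of these 10 genes, whose levels are given as a description and were not tested.

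The study compared the retinas of OIR and NORM pups with Drop-seq, which counts RNA molecules of single cells as unique molecular identifiers (UMIs) from their 3′ ends. All pups were of the C57B6 strain. OIR pups, kept with a foster mother, breathed 75% oxygen between postnatal days 7 and 12 and then normal air until tissue was taken on day 14 (P14) or 17 (P17). NORM pups stayed with their own mother in normal air and were sampled at the same ages. Retinas were used whole or after depletion of rods. There were 8 OIR libraries: of whole retina, 3 at P14 and 2 at P17, and of rod-depleted retina, 2 at P14 and 1 at P17. The 4 NORM libraries were 1 of each kind. The labels give neither sex nor the number of animals per library, nor whether each library is a separate set of pups. The p-values therefore speak of the variation among these libraries, part of which may be technical.

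Müller glia span the whole thickness of the retina and keep its neurons supplied. They take up glutamate and turn it into glutamine through glutamine synthetase (Glul), move water and potassium through Aqp4 and Kcnj10, and bind visual-cycle retinoids through Rlbp1. Under low oxygen, stabilised hypoxia-inducible factors switch on genes such as Adm, a vasodilator peptide, Apln, a peptide that acts on vessel cells, and Ndufa4l2, a brake on mitochondrial respiration. In OIR the high oxygen stops vessel growth, and the return to normal air leaves the avascular retina short of oxygen. After injury Müller glia can become reactive, with more of the intermediate filament Gfap and of targets of the STAT3 pathway such as Socs3. Gfap is also abundant in retinal astrocytes, which lie with the superficial vessels.

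The promoters of Adm, a gene of the rule, and of Gfap and Socs3, whose RNA the results below turn on, are shown as RefSeq gives them for GRCm38.p6, 250 bases before to 50 bases after the annotated start. In Adm at chr7:110627407-110627706 (plus strand), capitals mark the 2 matches of the hypoxia response core, ACGTG or GCGTG on either strand, starting at positions -90 and -54. This core is short, the form ACGTG overlaps the E-box CACGTG, and 43.8% of 32817 promoters hold it. In Gfap at chr11:102897151-102897450 and Socs3 at chr11:117969317-117969616 (both minus strand), capitals mark the STAT motif TTCNNNGAA, which reads the same on both strands and starts at positions -2 and -154. Of the 32817 promoters, 8.29% hold the STAT motif. The same windows of Apln, another gene of the rule, and of Glul held 0 matches of the hypoxia response core and are not printed.
Adm: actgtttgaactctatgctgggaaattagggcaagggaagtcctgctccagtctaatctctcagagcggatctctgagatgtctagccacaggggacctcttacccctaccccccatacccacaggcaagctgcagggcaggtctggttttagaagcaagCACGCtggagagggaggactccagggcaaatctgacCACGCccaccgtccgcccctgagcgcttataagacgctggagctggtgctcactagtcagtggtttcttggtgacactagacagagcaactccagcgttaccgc
Gfap: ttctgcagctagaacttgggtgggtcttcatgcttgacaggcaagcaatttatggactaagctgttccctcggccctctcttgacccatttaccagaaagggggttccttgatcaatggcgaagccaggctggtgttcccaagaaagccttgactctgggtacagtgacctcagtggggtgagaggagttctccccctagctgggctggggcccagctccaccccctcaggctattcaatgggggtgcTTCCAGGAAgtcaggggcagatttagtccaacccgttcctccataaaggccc
Socs3: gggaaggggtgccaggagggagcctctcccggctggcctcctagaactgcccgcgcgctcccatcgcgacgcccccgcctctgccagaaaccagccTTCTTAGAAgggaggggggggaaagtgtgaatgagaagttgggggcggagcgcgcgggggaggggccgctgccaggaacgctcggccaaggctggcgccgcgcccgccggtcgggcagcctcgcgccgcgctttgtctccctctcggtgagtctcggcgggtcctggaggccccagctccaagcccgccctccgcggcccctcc

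The cells carried the wider RNA profile of Müller glia. Summed over 10 Müller genes outside the rule (Glul, Aqp4, Kcnj10, Abca8a, Gpr37, Sox9, Clu, Apoe, Vim and Rdh10), the level was 208 to 407 normalised UMIs per 10000 in OIR libraries and 345 to 455 in NORM libraries, against 7.21 to 41.0 in the cells of the same libraries with at least 200 genes and fewer than 3 Müller markers. Of the 2216 cells, 602 carried all 7 markers and 387 carried 3, the least the rule allowed. The cells at the threshold were less clearly Müller glia: with 3 markers, Glul averaged 41.7 per 10000 and the rod-bipolar gene Pcp2 11.1, against 117 and 2.0 with 7 markers. Just outside, the 875 cells with 2 markers and no hypoxia marker had 11.9 of Glul. RNA of other cell types was present. At least 3 of 10 rod markers were found in 15.8% of the cells and at least 3 of 11 bipolar markers in 10.8%. The summed rod markers ranged over 1.99 to 130 per 10000 in OIR libraries and 2.11 to 129 in NORM libraries.

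A smaller part of the Müller-marker cells lacked hypoxia marker RNA in OIR than in NORM. Per library, 40.3% at the lowest, 51.5% at the median and 60.5% at the highest lacked it in OIR. In NORM the 4 libraries had 86.5% (P14 rod-depleted), 86.2% (P14 whole), 93.4% (P17 rod-depleted) and 93.8% (P17 whole). The means were 49.7 ± 7.67% in OIR (SD, n = 8) and 90.0 ± 4.18% in NORM (SD, n = 4), and no OIR library reached the NORM range. Because a shallow cell can miss a low transcript, each Müller-marker cell was also thinned to 500 UMIs, leaving out shallower cells (0 to 51 per OIR library and 21 to 74 per NORM library), which gave 66.0 ± 9.64% in OIR and 93.7 ± 4.0% in NORM. For comparison, cells with at least 3 bipolar markers and fewer than 3 Müller markers were examined. They carried hypoxia marker RNA in 1.90% to 5.42% of cells in OIR libraries and 0% to 2.10% in NORM libraries. Their median depths were 930 to 2510 and 639.5 to 1200.5 UMIs. In Müller-marker cells the share with hypoxia marker RNA was 39.5% to 59.7% in OIR and 6.25% to 13.8% in NORM. Whether such RNA in the bipolar-marker cells is background was not tested.

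**Figure D1:**
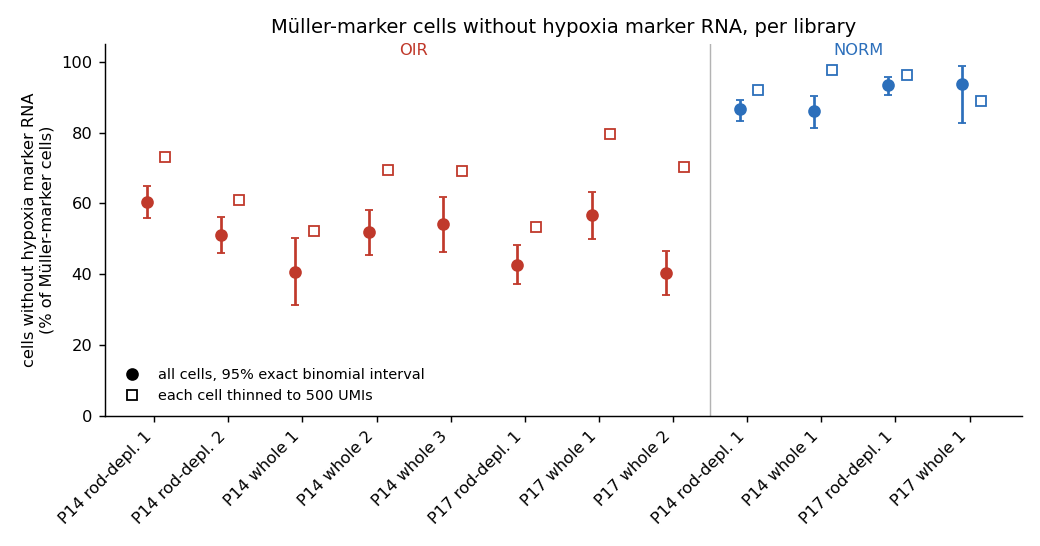
Share of Müller-marker cells without hypoxia marker RNA (percent, vertical axis) in each library, OIR in red and NORM in blue. Filled points show all cells with the 95% exact binomial interval, which covers counting error only, and open squares show cells thinned to 500 UMIs; the 8 OIR libraries lie at 40.3% to 60.5% and the 4 NORM libraries at 86.2% to 93.8% before thinning.

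The cells had median depths of 648 to 2424 UMIs per OIR library and 525 to 1133.5 per NORM library. Libraries held 45 to 274 of the cells in OIR and 45 to 469 in NORM, and no cell barcode was shared between libraries among them (28 of the 25472 cells of the series shared one). The whole-retina NORM library at P17 had 45 cells and 34197 UMIs, the fewest UMIs of all libraries. In it, 80.0% of the cells carried at least 3 markers of another cell type, against 13.9% to 27.7% in the other NORM libraries. OIR libraries had 17.2% to 78.8%, with 68.0% and 78.8% in the whole-retina ones at P17. The first whole-retina OIR library at P14 also had 45 cells, and 37.8% of them sat at the 3-marker threshold, against 8.96% to 26.7% in NORM libraries. At P17 the labels place both NORM libraries on 1 run and the rod-depleted OIR library on another, and give no run for the 2 whole-retina OIR libraries. No run is thus known to hold both groups at P17, where run and oxygen cannot be told apart. At P14 a run was shared in 2 cases: by the second rod-depleted OIR library with its NORM counterpart, and by the first whole-retina OIR library with its NORM counterpart.

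OIR and NORM cells differed in 5 genes past the threshold. Per library, levels were averaged over the cells and tested as log2(value + 0.2) with limma, with oxygen, age and fraction as terms, and differences are given as OIR minus NORM on that scale, which understates changes of low genes. Of 7608 genes tested, 5 passed an adjusted p of 0.05 (0.0657%), 4 of them higher in OIR (0.0526%) and 1 lower (0.0131%). These were Glul, lower, and the cysteine protease inhibitor Cst3, Gfap, the iron carrier Trf and the growth-factor binding protein Igfbp2, higher. At an unadjusted p of 0.05, 543 genes differed (7.14%), 342 of them higher (4.5%) and 201 lower (2.64%).

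Glul, the enzyme that makes glutamine from glutamate, lies on GRCm38 chr1:153899944-153909723 (plus strand). It had 39.8 normalised UMIs per 10000 at the lowest, 65.0 at the median and 84.2 at the highest in OIR libraries. In NORM libraries it had 89.0 (P14 rod-depleted), 131 (P14 whole), 139 (P17 rod-depleted) and 158 (P17 whole). Every OIR library lay below every NORM library. Glul fell by 0.91 ± 0.17 (SE) on the log2 scale in OIR, with means of 67.6 ± 15.4 (SD, n = 8) in OIR and 129 ± 29.2 (SD, n = 4) in NORM (limma, adjusted p = 0.0266). Within the 2 shared runs the difference was -1.16 (rod-depleted) and -1.06 (whole retina). It was -0.94 ± 0.22 at P14 (limma, adjusted p = 0.337) and -0.88 ± 0.24 at P17 (limma, adjusted p = 0.122), below the threshold at neither age taken alone. The choice of cells bears on its size. The Müller-marker cells left out for hypoxia marker RNA averaged more Glul in OIR, 93.5, and were higher in 8 of 8 libraries. In NORM they averaged 114, against 120 in the chosen cells of the same 3 libraries, and were higher in 2 of 3. With all Müller-marker cells taken, Glul did not pass.

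The lower Glul was present across the range of Müller identity. In cells with all 7 markers it averaged 94.3 per 10000 in OIR (300 cells) and 141 in NORM (302 cells), and in cells with 3 markers 29.9 in OIR (235 cells) and 60.0 in NORM (152 cells), pooled over libraries. OIR was lower at each marker count between, too. With cells of at least 5 markers alone the difference was -0.80 ± 0.16, but it no longer passed (limma, adjusted p = 0.141). It kept its sign under all 31 alternatives, at -1.07 to -0.80, and passed under 12 of them. Leaving out single libraries gave -0.97 to -0.83 and ended the call in 8 of 12 cases, with the highest adjusted p, 0.162, when P14 NORM whole retina was absent.

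Gfap lies on GRCm38 chr11:102887336-102900912 (minus strand). It had 1.01 per 10000 at the lowest, 3.62 at the median and 6.27 at the highest in OIR libraries. In NORM libraries it had 0.418 (P14 rod-depleted), 0.0535 (P14 whole), 0.786 (P17 rod-depleted) and 0 (P17 whole). All 8 OIR libraries lay above all NORM libraries. Gfap rose by 3.0 ± 0.42 (SE) in OIR, with means of 3.48 ± 2.03 (SD, n = 8) in OIR and 0.314 ± 0.365 (SD, n = 4) in NORM (limma, adjusted p = 0.00178). It was found in 5.77% to 15.4% of the cells of OIR libraries and 0% to 3.20% of those of NORM libraries, while 1.18% of the cells with at least 200 genes and fewer than 3 Müller markers had it.

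Cst3, on GRCm38 chr2:148871722-148875692 (minus strand), encodes cystatin C, which is secreted. Its levels were 30.5 at the lowest, 42.4 at the median and 115 at the highest in OIR libraries. The NORM libraries had 30.1 (P14 rod-depleted), 7.66 (P14 whole), 20.8 (P17 rod-depleted) and 11.1 (P17 whole). The groups did not overlap, though the lowest OIR library and the highest NORM library nearly met. Cst3 rose by 1.77 ± 0.23 (SE), with means of 50.7 ± 28.1 (SD, n = 8) in OIR and 17.4 ± 10.1 (SD, n = 4) in NORM (limma, adjusted p = 0.000688). Gfap and Cst3 kept their calls when any 1 of the 12 libraries was left out.

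Most RNA of Gfap and Cst3 lay in few cells that also carried astrocyte markers. These 3, Pax2, S100b and Pdgfra, were picked from a list of 7 with their values known. RNA of Pax2, S100b or Pdgfra was found in 107 of the 1107 OIR cells (9.67%) and 49 of the 1109 NORM cells (4.42%). These cells held 94.8% of the Gfap UMIs and 87.4% of the Cst3 UMIs in OIR, and 86.0% and 66.0% in NORM, while they held 18.1% of all UMIs in OIR and 7.76% in NORM. In the other cells Gfap averaged 0.623 per 10000 in OIR and 0.129 in NORM, and Cst3 12.6 in OIR and 10.2 in NORM. Over the whole list of 7 astrocyte markers, Gfap among them, the summed level was 5.66 to 18.8 in OIR libraries and 4.75 to 8.32 in NORM libraries, higher than all NORM libraries in 6 of 8, and no marker of the list was at 0. Without Gfap it was 4.50 to 13.1 in OIR and 4.69 to 7.53 in NORM, higher than all NORM libraries in 5 of 8. The members did not all go one way: Slc1a2 averaged 1.01 in OIR and 1.84 in NORM, Aldh1l1 0.567 in OIR and 0.645 in NORM, and Igf2 3.05 in OIR and 2.54 in NORM. The 7 pericyte markers had 1.45 to 13.4 in OIR and 1.25 to 3.72 in NORM.

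Without the cells that carried Pax2, S100b or Pdgfra RNA, no gene passed between OIR and NORM in the limma test (318 higher and 189 lower at an unadjusted p of 0.05). The differences were then 1.10 ± 0.46 for Gfap, 0.35 ± 0.23 for Cst3 and -0.85 ± 0.17 for Glul (limma, adjusted p = 0.741, 0.782 and 0.279). The call ended for all 5 genes, with Trf at 1.31 and Igfbp2 at 1.36 ± 0.34 (limma, adjusted p = 0.337 and 0.361). The size of the Glul difference changed little, and the removed cells held 9.18% of its UMIs in OIR and 5.48% in NORM. By number of Müller markers, Cst3 averaged 144 in OIR and 60.6 in NORM with 3 markers, and 8.71 in OIR and 11.3 in NORM with 7 markers. The cells with 3, 4, 5, 6 and 7 markers had median depths of 1052, 673, 851.5, 1083 and 1561 UMIs.

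**Figure D2:**
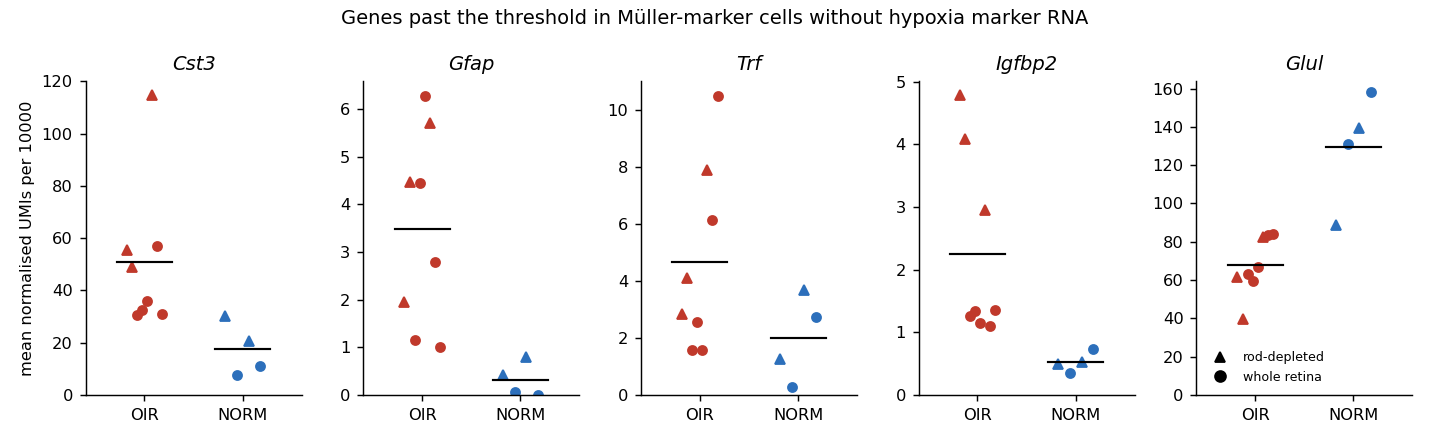
Mean normalised UMIs per 10000 (vertical axis) of the 5 genes past the threshold, OIR libraries in red and NORM libraries in blue; triangles are rod-depleted, circles whole retina, and the line is the group mean. Groups do not overlap for Cst3, Gfap, Igfbp2 and Glul, with Glul at 39.8 to 84.2 in OIR and 89.0 to 158 in NORM, and overlap for Trf.

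Trf, on GRCm38 chr9:103204001-103230444 (minus strand), encodes transferrin. It had 1.57 per 10000 at the lowest, 3.47 at the median and 10.5 at the highest in OIR libraries, against 1.27 (P14 rod-depleted), 0.272 (P14 whole), 3.69 (P17 rod-depleted) and 2.74 (P17 whole) in NORM libraries. The ranges overlapped because Trf was higher at P17 in both groups. At each age every OIR library exceeded every NORM library. Trf rose by 1.56 ± 0.27 (SE) in OIR (limma, adjusted p = 0.0215) and by 1.82 ± 0.26 at P17 relative to P14 (limma, adjusted p = 0.00167). The cells with astrocyte marker RNA held 48.0% of its UMIs in OIR and 14.0% in NORM, and without them the difference was 1.31 ± 0.31 (limma, adjusted p = 0.337).

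Igfbp2, on GRCm38 chr1:72824503-72852474 (plus strand), encodes a carrier of insulin-like growth factors. It had 1.09 per 10000 at the lowest, 1.34 at the median and 4.79 at the highest in OIR libraries, against 0.499 (P14 rod-depleted), 0.353 (P14 whole), 0.518 (P17 rod-depleted) and 0.727 (P17 whole) in NORM libraries. All 8 OIR libraries lay above all NORM libraries, and the 3 rod-depleted OIR libraries were the highest. Igfbp2 rose by 1.69 ± 0.31 (SE) in OIR (limma, adjusted p = 0.0266). Its RNA was highest in the cells nearest the threshold of the rule: it averaged 5.68 in OIR and 1.38 in NORM with 3 markers, and 0.696 in OIR and 0.121 in NORM with 7. Cells with 3 markers held 41.4% of its UMIs in OIR and 42.7% in NORM, and the cells with astrocyte marker RNA 36.1% in OIR and 14.5% in NORM. Trf kept its call in 8 and Igfbp2 in 5 of the 12 fits that left out a library, with the highest adjusted p at 0.162 for Trf (P14 NORM whole retina left out) and at 0.271 for Igfbp2 (P14 NORM rod-depleted left out).

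**Figure D3:**
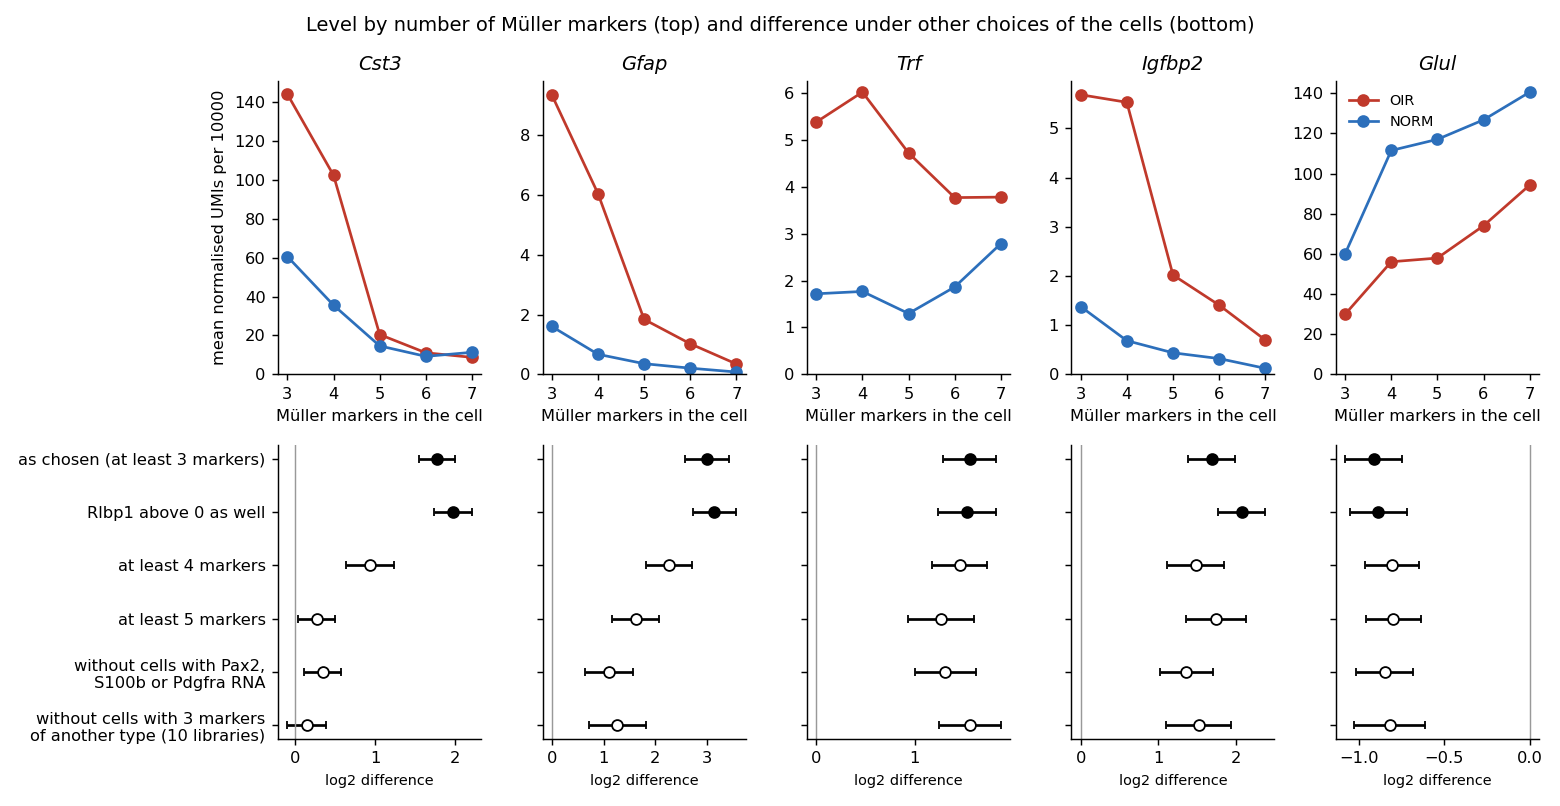
Upper row, mean normalised UMIs per 10000 against the number of Müller markers in the cell, pooled over OIR (red) or NORM (blue) cells. Lower row, log2 difference OIR minus NORM with its standard error under 6 choices of the cells, filled where the adjusted p was below 0.05. Cst3 is at 0.27 with at least 5 markers, while Glul lies at -0.91 to -0.80 in the choices shown.

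Among 20 Müller identity genes, Glul was the 1 that passed. The retinoid carrier Rlbp1 and the carbonic anhydrase Car14, both in the rule and therefore not tested, were also lower in every OIR library than in every NORM library. Rlbp1 averaged 42.6 ± 6.10 in OIR and 59.6 ± 4.70 in NORM (SD, n = 8 and n = 4), and Car14 11.6 ± 3.12 in OIR and 19.6 ± 3.58 in NORM. The glutamate transporter Slc1a3 had 22.3 in OIR and 24.0 in NORM, the thyroid hormone binding protein Crym 21.5 and 18.1, and the secreted protein Dkk3 36.6 and 44.1, all with overlapping libraries. Dapl1 had 26.2 in OIR and 29.6 in NORM, and Spc25 14.4 in OIR and 22.1 in NORM, again with overlapping libraries. The 3 hypoxia markers were at 0 by the rule. Over all genes tested, which leave out the rule genes, 25 were below every NORM library in all 8 OIR libraries (0.329%) and 23 above (0.302%).

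Of the identity genes outside the rule, the receptor Gpr37 had 5.77 to 11.1 per 10000 in OIR libraries and 12.0 to 18.5 in NORM libraries. The groups did not overlap, but the difference of -0.71 ± 0.21 did not pass (limma, adjusted p = 0.402). Carbonic anhydrase Car2 averaged 42.2 ± 11.8 in OIR and 63.3 ± 5.01 in NORM, with 7 of 8 OIR libraries below the NORM range, and did not pass either (-0.68 ± 0.21, limma, adjusted p = 0.518). The water channel Aqp4 had 6.31 ± 2.45 in OIR and 10.9 ± 3.75 in NORM, and the chaperone Clu 48.7 ± 14.7 in OIR and 80.1 ± 40.7 in NORM, with overlapping libraries. The apolipoprotein Apoe averaged 124 ± 49.3 in OIR and 125 ± 22.6 in NORM, the matrix protein Sparc 53.2 ± 4.87 and 53.6 ± 8.61, and the filament Vim 15 ± 4.71 and 15.2 ± 4.14. The Müller transcription factor Sox9 had 6.39 ± 2.17 in OIR and 5.75 ± 3.33 in NORM, a difference of 0.16 ± 0.24.

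Across the 16 measured genes of Müller homeostasis, 1 was lower past the threshold and none higher, and the median difference was -0.37, against 0.06 over all genes tested. At an unadjusted p of 0.05, 7 of the 16 were lower and 1 higher, where 2.64% of all genes were lower and 4.5% higher. Of the chosen cells, 21.2% in OIR and 13.7% in NORM had 3 markers, where Glul, Gpr37 and Car2 were lower than with 7 markers in both groups. At each marker count these genes were lower in OIR. The part of this difference in cells was not tested for the list. In all Müller-marker cells the median was -0.24 and 0 of the 16 passed. Of 21 listed reactive gliosis genes, 13 were high enough to be tested. Among these 13 Gfap passed, 8 were higher at an unadjusted p (4.5% of all genes were), and the median was 0.90. The acute-phase genes A2m and Serpina3n did not pass (1.85 ± 0.44 and 1.58 ± 0.41, limma, adjusted p = 0.208 and 0.309). Of their OIR UMIs, 79.5% and 89.0% lay in the cells with astrocyte marker RNA. All 7 measured genes of the insulin-like growth factor list had positive differences (55.9% of all genes did), with a median of 0.88, and Igfbp2 passed.

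In the chosen cells the wider hypoxia programme did not pass in any of its genes. The rule had left out a larger share of the Müller-marker cells in OIR than in NORM. The chosen cells had on average less RNA than the cells left out for 18 of 22 hypoxia and HIF targets (81.8%, against 38.8% of all genes). The values below therefore hold for the chosen cells and not for Müller glia at large. Of these 22 measured targets, all outside the rule, none passed. At an unadjusted p of 0.05, 2 were higher and 1 lower, where 4.5% of all genes were higher and 2.64% lower. The median difference was 0.24, against 0.06 over all genes tested. At P14 it was -0.004, against -0.03 over all genes, with 1 higher and 0 lower at an unadjusted p of 0.05. At P17 it was 0.49, against 0.18, with 17 of 22 positive (59.1% of all genes were). There 5 were higher and 0 lower unadjusted, where 10.7% of all genes were higher and 4.36% lower, and none passed. In all Müller-marker cells, over both ages, the median was 0.40, and 1 of the 22, Anxa2, passed. Vegfa, the chief vessel growth factor of the retina, had 6.03 at the lowest, 9.05 at the median and 14.3 at the highest in OIR libraries, against 6.92 (P14 rod-depleted), 11.5 (P14 whole), 5.37 (P17 rod-depleted) and 3.91 (P17 whole) in NORM libraries. The groups overlapped, and the difference was 0.56 ± 0.27 (limma, adjusted p = 0.689). In all Müller-marker cells, with and without hypoxia marker RNA, it was 1.16 ± 0.26 (limma, adjusted p = 0.117). Anxa2, a membrane-binding protein, had 0.585 ± 0.354 in OIR and 0.162 ± 0.101 in NORM, 1.17 ± 0.33, and did not pass (limma, adjusted p = 0.353). The mitochondrial subunit Cox4i2, which is induced by low oxygen in other tissues, had 5.55 ± 1.47 in OIR and 8.31 ± 1.35 in NORM, -0.60 ± 0.22 (limma, adjusted p = 0.619).

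The counts of list members here are of the genes high enough to be tested, which for most lists were fewer than those listed. They were 7 of 21 angiogenic factors, 7 of 17 cell cycle genes and 9 of 17 NF-kB and cytokine genes. None of 19 glycolysis genes passed. At an unadjusted p, 2 were higher and 1 lower, where 4.5% of all genes were higher and 2.64% lower. Their median was 0.04, against 0.06 over all genes tested. None of 25 respiratory chain genes passed, with a median of -0.14, and none of 14 Notch and progenitor genes passed even unadjusted, with a median of 0.06. Antigen presentation and interferon genes had 4 of 12 higher at an unadjusted p, against 4.5% of all genes, and a median of 0.50, and none passed. None passed among 11 extracellular matrix genes (median 0.40), 7 angiogenic factors (0.46), 9 NF-kB and cytokine genes (0.54), 7 cell cycle genes (0.30), 16 metallothionein and oxidative stress genes (-0.03), 11 unfolded protein response genes (0.17), 9 heat shock genes (0.18), 11 lipid genes (0.07), 12 mitochondrially encoded genes (0.09) and 78 ribosomal proteins (-0.02). Among all other genes, those nearest the threshold on the higher side were Rnaset2b (1.72 ± 0.36, limma, adjusted p = 0.129), the growth factor receptor Pdgfra (1.74 ± 0.38) and the pericyte gene Rgs5 (2.28 ± 0.51, limma, adjusted p = 0.172 for both). On the lower side they were led by the lysophospholipase Enpp2, with 2.97 ± 1.12 in OIR and 6.46 ± 2.55 in NORM.

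At P17 alone, 32 of 7608 genes passed between OIR and NORM (0.421%), 29 higher in OIR (0.381%) and 3 lower (0.0394%). Socs3, Atf3, Ddit3 and Gadd45g were among those higher. Of the lists of stress genes, none of 9 heat shock genes passed (median 0.27), none of 16 metallothionein and oxidative stress genes (median -0.16) and 1 of 11 genes of the unfolded protein and integrated stress response, higher (median 0.24), against a median of 0.18 over all genes tested. At P14 no gene passed in the limma test, with 165 at an unadjusted p of 0.05. The comparison at P17 rests on 3 OIR and 2 NORM libraries.

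Socs3, a feedback inhibitor that STAT3 switches on, lies on GRCm38 chr11:117966079-117970047 (minus strand). At P17 it had 11.3 (rod-depleted), 3.73 and 4.70 (whole) per 10000 in OIR libraries, against 0.329 (rod-depleted) and 0.230 (whole) in NORM libraries. At P14 it had 6.74 and 12.9 (rod-depleted), 4.71, 3.04 and 4.03 (whole) in OIR libraries, against 8.52 (rod-depleted) and 2.50 (whole) in NORM libraries. The 2 NORM libraries at P17 were thus the low ones, and the other 10 lay between 2.50 and 12.9. Socs3 rose by 3.86 ± 0.37 (SE) in OIR at P17 (limma, adjusted p = 3.15e-06), was 0.35 ± 0.34 at P14, and the 2 effects differed by 3.51 ± 0.50 (limma, interaction, adjusted p = 0.00331). In that test 3 of 7608 genes passed (0.0394%), 1 higher, Socs3 (0.0131%), and 2 lower (0.0263%), among them the photoreceptor gene Rcvrn. Socs3 passed at P17 under all 30 alternatives, at 2.61 to 4.83. Unlike Gfap, its UMIs were not concentrated in the cells with astrocyte markers, which held 11.7% of them in OIR and 4.48% in NORM.

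Atf3, a transcription factor of the stress response, had 6.77 (rod-depleted), 3.0 and 5.45 (whole) per 10000 in OIR libraries at P17, against 0.272 (rod-depleted) and 0.858 (whole) in NORM libraries. At P14 it averaged 13.7 ± 3.57 in OIR (SD, n = 5), against 10.6 (rod-depleted) and 13.2 (whole) in NORM libraries. Again the NORM libraries at P17 were the low ones. Atf3 rose by 2.77 ± 0.38 in OIR at P17 (limma, adjusted p = 0.00068), and its difference between the ages did not pass (2.64, limma, interaction, adjusted p = 0.0552). It passed at P17 in 29 of 30 alternatives.

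**Figure D4:**
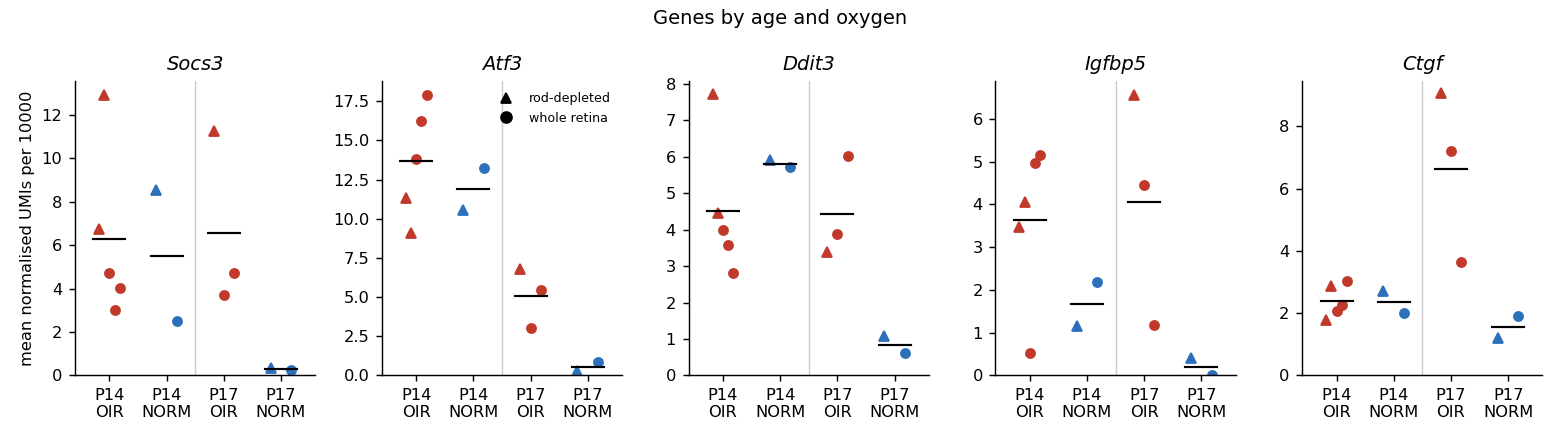
Mean normalised UMIs per 10000 (vertical axis) of 5 genes by age, OIR in red and NORM in blue; triangles are rod-depleted, circles whole retina, and the line is the group mean. For Socs3, Atf3 and Ddit3 the P17 NORM libraries lie below all others, at 0.230 to 0.329 for Socs3.

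Of 19 immediate early genes measured, 4 passed at P17, all higher in OIR (Atf3, Ctgf, Jund and Egr2), and 16 were higher at an unadjusted p. Of all genes, 10.7% were higher and 4.36% lower by that measure. The median difference of the list was 1.31, against 0.18 over all genes tested. Ctgf, a matrix-associated growth regulator, had 9.07 (rod-depleted), 7.22 and 3.66 (whole) in OIR libraries at P17, against 1.21 (rod-depleted) and 1.92 (whole) in NORM libraries, and rose by 1.91 ± 0.39 (limma, adjusted p = 0.0314). Ddit3, of the integrated stress response, rose by 2.20 ± 0.38 (limma, adjusted p = 0.00912), and the DNA damage-inducible Gadd45g by 2.84 ± 0.45 (limma, adjusted p = 0.00403). In the gliosis list Socs3 and Gfap passed of the 13 genes tested, Gfap by 2.80 ± 0.62 (limma, adjusted p = 0.0428). The call of Gfap at P17 held under 14 of 30 alternatives, and its sign turned without the cells that carried 3 markers of another type (-0.73, limma, adjusted p = 0.999). Igfbp5 was the 1 of 7 measured insulin-like growth factor genes that passed, and rose by 3.44 ± 0.67 (limma, adjusted p = 0.0235). Vegfa was 1.36 ± 0.33 at P17 and did not pass (limma, adjusted p = 0.0703), against 2.0 in all Müller-marker cells, where it passed (limma, adjusted p = 0.000884).

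Rcvrn, a calcium-binding protein of photoreceptors, moved the other way at P17. It had 0.278 (rod-depleted), 1.39 and 0.871 (whole) per 10000 in OIR libraries at P17, against 1.55 (rod-depleted) and 8.40 (whole) in NORM libraries, and fell by 2.41 on the log2 scale (limma, adjusted p = 0.0488). The call held under 7 of 30 alternatives. Without the cells that carried 3 markers of another type, Rcvrn was at -0.19. With P17 NORM whole retina left out it was at -2.32. Both choices left 1 NORM library at P17. Without P17 NORM whole retina, 4 genes passed at that age, Socs3 and Atf3 among them. Without the rod-depleted NORM library 940 did, and without the first or the second whole-retina OIR library of that age 9 each. The number was 17 with P17 OIR rod-depleted left out, 19 without either rod-depleted OIR library at P14, and 67 without the first whole-retina OIR library at P14. The part of photoreceptor RNA, depth and run in the differences at P17 was not tested.

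Age and fraction each moved a few genes. At P17 relative to P14, 14 genes passed (0.184%), 4 higher (0.0526%) and 10 lower (0.131%). Clu rose by 0.94 ± 0.17 (limma, adjusted p = 0.0194), the acyl-CoA binding protein Dbi fell by 0.81 (limma, adjusted p = 0.0483), and Atf3 fell by 2.37 (limma, adjusted p = 0.004). Rod-depleted against whole retina gave 31 genes (0.407%), 6 higher (0.0789%) and 25 lower (0.329%). Gnat1, the rod transducin subunit, fell by 3.61 in the rod-depleted libraries (limma, adjusted p = 0.000576), so rod RNA in these cells moved with the preparation. Cst3 was 1.10 ± 0.21 and the transcriptional regulator Id3 0.98 ± 0.18 higher in rod-depleted libraries (limma, adjusted p = 0.0156 and 0.0131). With single libraries left out, the number of age genes ran between 4 (P14 OIR whole retina 2, or P17 NORM rod-depleted) and 38 (P14 OIR whole retina 1), and that of fraction genes between 15 (P14 OIR rod-depleted 2) and 58 (P17 NORM whole retina).

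Set beside the Müller-marker cells with hypoxia marker RNA of the same libraries, the cells without it had less of further hypoxia-linked RNA. The rule split the cells on such RNA and the cells with it were deeper, with median UMIs of 1095 to 3157 per OIR library and 1098 to 1507 per NORM library, so these values are a description with no test. They cover 11 libraries with at least 20 cells of each kind. Vegfa averaged 9.75 ± 2.84 in cells without and 21.3 ± 5.18 in cells with hypoxia marker RNA in OIR (SD, n = 8), and 7.93 ± 3.19 and 13.4 ± 3.85 in NORM (SD, n = 3). It was lower in the cells without in all 11 libraries, as were Anxa2, the glycolytic enzyme Tpi1, Vim and Sparc. Of the 22 hypoxia targets, 18 were lower on average (81.8%), with a median difference of -0.32 on the log2 scale, against 38.8% lower and a median of 0.07 over all genes tested. Genes outside the list were lower too, among them Glul (-0.33), Sox9 (-0.46), Sparc (-0.47) and Trf (-1.11).

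Identity genes and the genes past the threshold between OIR and NORM did not follow that split evenly. Glul had 67.6 ± 15.4 in cells without and 93.5 ± 15.5 in cells with hypoxia marker RNA in OIR, lower in 8 of 8 libraries, and 120 ± 27.0 and 114 ± 18.9 in NORM. Trf averaged 4.65 ± 3.25 in cells without and 9.52 ± 3.13 in cells with the markers in OIR, and was lower in all 8 libraries. Igfbp2 had 2.25 ± 1.49 in cells without and 0.872 ± 0.457 in cells with them in OIR, and was higher in 7 of 8. Apoe and Gpr37 were nearly level, with mean differences of 0.03 and 0.05. Taking all Müller-marker cells, 9 of 7505 genes passed between OIR and NORM (0.12%), of which Gfap and Trf also passed in the cells without hypoxia marker RNA. At P17 the numbers were 94 (1.25%) and 29 shared.

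**Figure D5:**
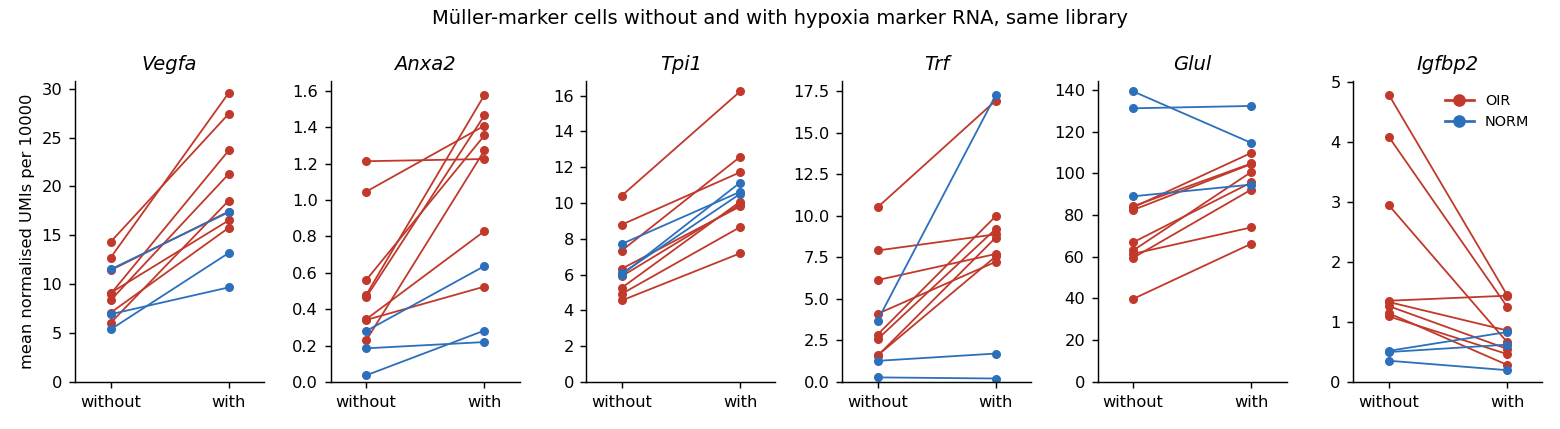
Mean normalised UMIs per 10000 (vertical axis) in Müller-marker cells without (left) and with (right) hypoxia marker RNA, with 1 line per library, OIR in red and NORM in blue. Vegfa, Anxa2 and Tpi1 are lower in the cells without in all 11 libraries, and Igfbp2 is higher in 7 of 8 OIR libraries.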

How the data were processed

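The authors deposited a table of 21408 genes by 31271 cells, holding natural log values ln(1 + UMIs / cell total × 10000): 100% of non-zero values lay within 0.05 of a whole UMI. The tools and build named are STAR 2.4.0, bcl2fastq and mm10 (GRCm38), per the submitters' processing notes. Strand and doublet handling is not given in the sources used here, and no doublet caller was run. Columns were matched to libraries by name; 5799 columns that match no library were not used, and whole-retina NORM at P14 carries another replicate number in the table than in its label.

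Cells needed 200 genes. Levels are means over cells of exp(value) - 1 per library (at least 20 cells), tested as log2(value + 0.2) for genes with a mean of at least 0.2 and above 0 in at least 3 libraries, with limma 3.58.1 in R 4.3.3 (trend, two-sided, Benjamini-Hochberg over all 7608 genes; the 10 rule genes were left out). Models held oxygen, age and fraction, with 8 residual degrees of freedom, or oxygen per age. The procedure was tested on simulated data. Cells of a library were not treated as replicates. Libraries of a group differed beyond counting noise and each counted as 1. The cells and gene lists were chosen with earlier results of these data known. Named were the rule genes, 20 identity genes, all genes past the threshold, the 10 nearest it per direction (by example) and up to 4 genes per list; Gadd45g at P17, Rcvrn, Gnat1 and the age and fraction genes were chosen after their values were seen. The other gene with a lower interaction is not reported here. Positions are from GENCODE M21. Alternatives varied pseudocount, filters, scaling, depth, cell choice, model and left-out libraries; those by Pax2, S100b or Pdgfra RNA, at least 5 markers, Rlbp1 above 0 and rod, cone or bipolar markers were added after seeing the data.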

Additional observations from a re-analysis of the deposited data

Results flagged for a closer look

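Among the OIR libraries, the rod-depleted P17 library stood far above the rest for Cst3, at 115 normalised UMIs per 10000 with the next at 57, and the first whole-retina P14 library far below the rest for Sparc, at 41.8 with the next at 52.6. Of 74 groups of values examined for such a library, chance alone would mark about 1 in 20. The effect of OIR differed between P17 and P14 for Socs3 and Rcvrn. Socs3 had a difference of 3.51 (limma, interaction, adjusted p = 0.00331), and in all 3 OIR libraries at P17 it exceeded both NORM libraries. The photoreceptor gene Rcvrn had -4.18 (limma, interaction, adjusted p = 0.0239). That value combined a fall in OIR at P17 with a rise in OIR at P14, where no gene passed. At P17 the shallow whole-retina NORM library had 8.40 per 10000.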

How the results depend on the processing

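The 5 genes between OIR and NORM became 2 with a pseudocount of 0.05, 0 with no filter on low values (limma, 428 higher and 426 lower unadjusted), 1 with oxygen alone in the model, 2 with no variance trend, 0 with at least 4 or 5 markers (493 and 465 genes unadjusted), 0 without cells carrying 3 markers of another type (234 unadjusted, 10 libraries), 0 without cells carrying Pax2, S100b or Pdgfra RNA and 1 without cells carrying 3 rod, cone or bipolar markers. Leaving out a library gave 2 to 7, with 2 without the second rod-depleted OIR library at P14, the second whole-retina OIR library at P17, the whole-retina NORM library at P14 or the rod-depleted NORM library at P17. All 5 also passed where Rlbp1 was required.

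At P14 the 0 genes became 1 with summed UMIs, 1 with at least 500 UMIs per cell, 3 with cells thinned to 300 UMIs, 5 with at least 50 cells per library and 2 with Rlbp1 required, and 0 to 11 without a library. At P17 the 32 became 10 with a pseudocount of 1, 1 with no filter, 18 with summed UMIs, 6 without cells of 3 markers of another type, 19 without the 5% of cells with most UMIs, 7 with at least 50 cells per library, 2 with no variance trend and 6 without cells of 3 rod, cone or bipolar markers, and 4 to 940 without a library. Without cells of 3 markers of another type, 3 genes changed sign at P17: Cst3 to -0.25, S100b to -0.98 and Gfap to -0.73. That choice left 1 NORM library at P17, and S100b and Gfap are themselves among the markers by which cells were removed. The cause was not tested.

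The 3 interaction genes became 0 with a pseudocount of 1, no filter or no variance trend, 1 with a mean of at least 1 or at least 500 UMIs, 8 with thinning or Rlbp1 required, 6 with at least 4 markers or 50 cells, 5 without Pax2, S100b or Pdgfra RNA, and 1 to 273 without a library. The 14 age genes became 6 with a pseudocount of 0.05 or no trend, 0 with no filter, 58 with 50 cells, 9 with Rlbp1 required, 23 without rod, cone or bipolar markers, and 4 to 38 without a library. The 31 fraction genes became 0 with no filter, 18 with a mean of at least 1, 60 without markers of another type, 342 with 50 cells, 19 with at least 5 markers, 100 without rod, cone or bipolar markers, and 15 to 58 without a library. The share of Müller-marker cells without hypoxia marker RNA in OIR was 66.0% after thinning and 48.2% to 51.1% without a library; in NORM it was 88.7% to 91.2%.

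Among OIR libraries, same-numbered ones did not deviate together (correlations of -0.07 to 0.09 over 6 pairs), and the numbers were not taken as pairs. NORM had 1 library of each kind, so the check could not cover pairs of OIR and NORM. In kinds with 2 libraries the deviations mirror each other, so the pairs are not independent. A replicate block gave 3 genes for OIR minus NORM, 18 at P17, 6 for the interaction and 8 for age. Depth limits low genes most in P17 NORM whole retina, with 34197 UMIs over its 45 cells.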
